A study of Mus musculus with 33 samples.

Results

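The simple epithelial keratins Krt7, Krt8, Krt18 and Krt19 and the trophoblast transcription factors Cdx2, Tfap2c, Elf5 and Gata3 were followed through the differentiation of mouse embryonic stem (ES) cells. The 8 genes were picked by name out of 24391 genes in the table, with their total counts in view, so their total levels are described here and carry no test. Keratins are intermediate filament proteins that assemble as pairs of a type II chain (Krt7 and Krt8) and a type I chain (Krt18 and Krt19). Krt8 and Krt18 are among the first keratins made in the embryo, in the trophectoderm that becomes placenta, and they mark simple epithelia in general. In the trophoblast, Cdx2, Gata3, Tfap2c and Elf5 form a network that sets up and keeps the lineage. Cdx2 also patterns the caudal embryo, Gata3 acts in several other tissues, and Tfap2c is also made in ES cells and germ cells.

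RNA was sequenced from RepB cells, a genotype named after Repeat B of Xist, the noncoding RNA of X-inactivation, and from WT (wild-type) cells. Both were ES cells of a cross between the strains CAST/Ei and 129/Sv/Jae. They were grown with LIF on irradiated feeder fibroblasts, then differentiated in suspension as embryoid bodies and plated on gelatin on day 4. Each line gave 1 library at day 0, before differentiation, and 1 at each of days 5, 6, 7, 8 and 10, which makes 12 libraries in all. The labels neither describe the RepB edit nor say how many clones were used, and nothing marks replicate cultures. The spread given below is therefore that over the 5 differentiating days of 1 time course per line.

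Levels are given as CPM, the count divided by the library total and scaled to a common size. Library totals were 15231930 counts for RepB and 16888957 for WT at day 0. Over days 5 to 10 they were 3594551 to 6977752 for RepB and 7763633 to 17773138 for WT, so RepB values are less precise on those days. A count of 3, the limit that a gene without counts allows, came to 0.169 to 0.835 CPM over the libraries. The day 0 cells held RNA of pluripotency genes, with Nanog at 767 CPM in RepB and 736 CPM in WT and Pou5f1 at 954 CPM in RepB and 816 CPM in WT. They also held RNA of fibroblast and feeder genes, whose 10 listed members summed to 824 CPM in RepB and 728 CPM in WT at day 0. In such bulk libraries, fewer cells of a type and less RNA per cell cannot be told apart.

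Krt8, Krt18 and Krt7 lie in the type II keratin cluster region of chromosome 15, where Krt18 is the type I gene that stands beside Krt8. In mm9 the first listed exons are 101827142 to 101827564 for Krt8 on the minus strand, 101858647 to 101859105 for Krt18 on the plus strand and 101242834 to 101243210 for Krt7 on the plus strand. The first listed exon is the one of lowest coordinate, which for a minus-strand gene lies at its 3′ end and away from the transcript start. The lowest listed coordinates of Krt8 and Krt18 are 31.5 kb apart, and those of Krt7 and Krt8 are 584 kb apart. Krt19 lies with other type I keratins on chromosome 11 (minus strand, first listed exon 100002126 to 100002481). Cdx2 is on chromosome 5 (minus strand, first listed exon 148112476 to 148113669). On chromosome 2 the first listed exons are 172375093 to 172375382 for Tfap2c and 103252255 to 103252284 for Elf5, both on the plus strand. That of Gata3, on the minus strand of the same chromosome, is 9778705 to 9780281.

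Upstream sequences are shown for the 5 genes that climbed during differentiation and have an entry among the RefSeq promoters. Each is the 250 bases before the RefSeq transcript start in GRCm38.p6, read 5′ to 3′ on the gene's own strand. They are chr15:101412153-101412402 (plus strand) for Krt7, chr15:102004343-102004592 (minus) for Krt8, chr15:102027966-102028215 (plus) for Krt18, chr5:147307250-147307499 (minus) for Cdx2 and chr2:9878601-9878850 (minus) for Gata3. Capitals mark matches, on either strand, to 4 short motifs: GCCNNNGGC of AP-2 factors such as Tfap2c, GATAA of GATA factors, TTTAT of CDX factors and GGAAG of ETS factors such as Elf5.
Krt7: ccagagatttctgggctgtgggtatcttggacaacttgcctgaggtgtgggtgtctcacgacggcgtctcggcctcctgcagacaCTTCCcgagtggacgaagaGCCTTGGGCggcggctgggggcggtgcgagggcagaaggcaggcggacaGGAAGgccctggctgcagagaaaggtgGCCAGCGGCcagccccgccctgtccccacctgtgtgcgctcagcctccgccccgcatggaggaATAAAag
Krt8: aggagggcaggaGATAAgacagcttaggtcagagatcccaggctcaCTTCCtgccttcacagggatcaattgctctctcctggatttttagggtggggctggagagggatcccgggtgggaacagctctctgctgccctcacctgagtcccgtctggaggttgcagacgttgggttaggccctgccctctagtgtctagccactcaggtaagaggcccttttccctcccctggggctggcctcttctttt
Krt18: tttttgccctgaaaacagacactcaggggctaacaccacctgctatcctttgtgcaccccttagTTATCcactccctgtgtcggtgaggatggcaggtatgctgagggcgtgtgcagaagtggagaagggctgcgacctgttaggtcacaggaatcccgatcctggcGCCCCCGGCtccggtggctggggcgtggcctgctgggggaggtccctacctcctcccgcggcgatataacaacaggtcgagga
Cdx2: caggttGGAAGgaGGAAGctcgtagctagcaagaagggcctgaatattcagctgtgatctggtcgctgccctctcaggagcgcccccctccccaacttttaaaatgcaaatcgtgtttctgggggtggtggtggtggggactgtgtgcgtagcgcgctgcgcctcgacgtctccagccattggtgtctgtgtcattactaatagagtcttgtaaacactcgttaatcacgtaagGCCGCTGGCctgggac
Gata3: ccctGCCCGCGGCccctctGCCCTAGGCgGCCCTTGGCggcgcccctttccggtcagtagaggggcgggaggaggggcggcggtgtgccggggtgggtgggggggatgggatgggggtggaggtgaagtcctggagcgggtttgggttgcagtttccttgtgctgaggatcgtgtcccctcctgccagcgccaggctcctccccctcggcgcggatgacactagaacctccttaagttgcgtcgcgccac
The motifs were chosen after these sequences had been seen, and a match is no evidence of binding. Krt7 held 2 AP-2 matches, 1 CDX match and 2 ETS matches, and Gata3 held 3 AP-2 matches. Krt18 held 1 AP-2 and 1 GATA match, Krt8 held 1 GATA and 1 ETS match, and Cdx2 held 1 AP-2 and 2 ETS matches. Of 32851 mouse promoters of the same length, 13.7% held the AP-2 motif, 22.6% the GATA motif, 37.3% the CDX motif and 64.1% the ETS motif. The TATA motif TATAAA, which shares letters with the reverse of the CDX motif, was found in 12.4% of all promoters and in none of these windows. The windows shown were 55.2% (Cdx2) to 70% (Gata3) G and C, against a median of 52.4% over all promoters. The motif shares above do not allow for this. Elf5 also had entries, 1 with an ETS match and 1 with a GATA and a CDX match, and neither held an AP-2 match. Krt19 and Tfap2c had no entry.

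Krt8, the main type II chain of simple epithelia, climbed by about the same factor in both lines and was highest at day 8. It stood at 9.13, 78.3, 411, 746, 859 and 484 CPM in RepB at days 0, 5, 6, 7, 8 and 10, and at 8.59, 87.9, 287, 582, 892 and 507 CPM in WT. All 5 differentiating days lay above day 0 in each line, and the ranges of the lines overlapped almost wholly. The peak was 94.1 times day 0 in RepB and 104 times in WT. On the log2 scale with 0.5 CPM added, used for all log2 values of these 8 genes, the mean RepB/WT difference over days 5 to 10 was 0.12 ± 0.30 (SD, n = 5 days), with RepB higher on 2 of 5 days.

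Krt18, its type I partner, followed nearly the same course. It stood at 12.4, 147, 493, 997, 1301 and 798 CPM in RepB, and at 14.9, 203, 350, 771, 1464 and 883 CPM in WT, in the same order of days. Day 8 was the highest day in both lines, 105 times day 0 in RepB and 98.5 times in WT. The log2 RepB/WT difference averaged 0.017 ± 0.40, with RepB higher on 2 of 5 days.

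Krt19, a small type I keratin that lacks most of the usual tail domain, was the most abundant of the 4 keratins per kilobase before differentiation. It stood at 15.8, 43.4, 287, 318, 262 and 220 CPM in RepB, and at 25.6, 49.2, 166, 253, 340 and 183 CPM in WT. The top day was day 7 in RepB and day 8 in WT. Its step between days 5 and 6 was 6.60-fold in RepB and 3.38-fold in WT. The log2 RepB/WT difference was 0.16 ± 0.46, with RepB higher on 3 of 5 days, and it was -0.68 at day 0.

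Krt7, a type II keratin of ducts, glands and trophoblast, was the lowest of the 4 per kilobase and did not turn down by the last day. It stood at 0.722, 6.23, 15.9, 22.1, 29.8 and 62.5 CPM in RepB, and at 1.30, 5.96, 8.54, 13.6, 29.5 and 54.7 CPM in WT. Each day lay above the one before it in both lines, and day 10 was 10.0 times day 5 in RepB and 9.17 times in WT. RepB was higher on 5 of 5 differentiating days, by a log2 of 0.36 ± 0.39, while at day 0 the log2 difference was -0.56. The size was uneven, 1.86-fold at day 6 and 1.63-fold at day 7 against 1.04-fold at day 5, 1.01-fold at day 8 and 1.14-fold at day 10.

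**Figure D1:**
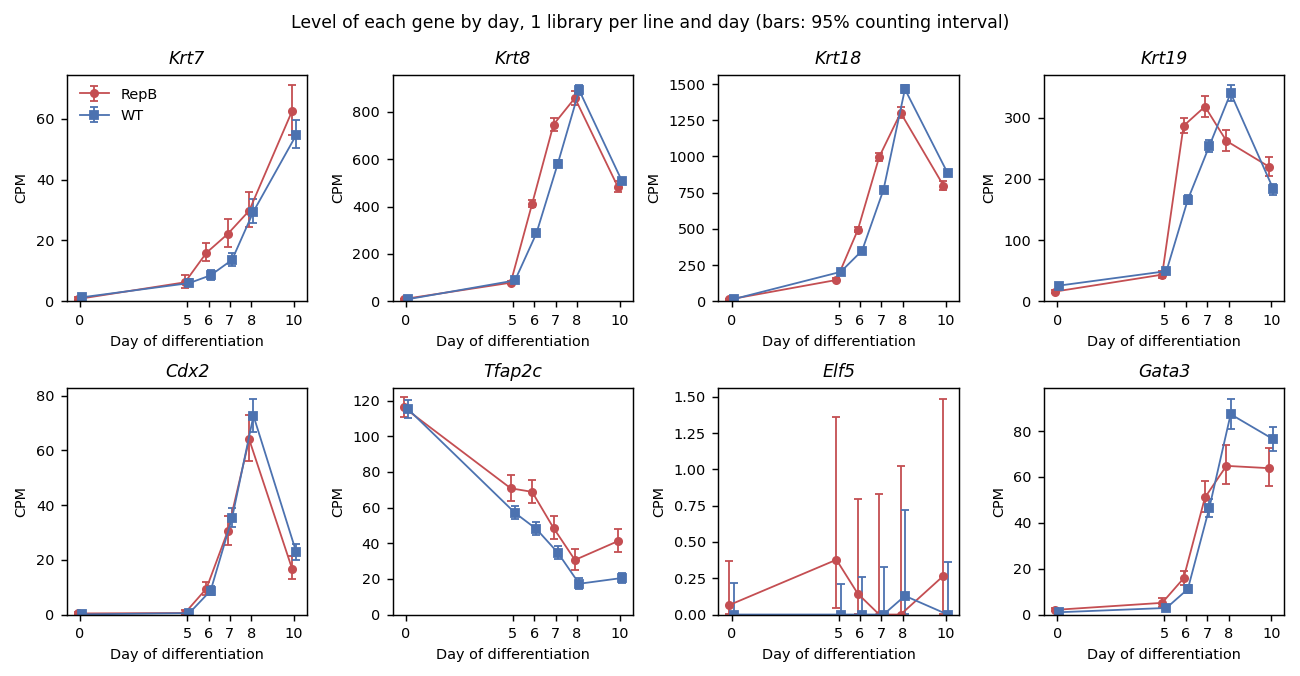
Level of each of the 8 genes in CPM (linear axes from 0, scaled per gene) against day, RepB as red circles and WT as blue squares, 1 library per point with 95% exact Poisson intervals of the count. Krt8, Krt18 and Cdx2 peak at day 8 in both lines, Krt7 is highest at day 10, Tfap2c starts at 116 CPM in RepB and 115 CPM in WT and is lower on every later day, and Elf5 stays at 2 counts or fewer in each library.

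The 4 keratins were higher in RepB than in WT at days 6 and 7. At day 6 the RepB level was 1.43 times the WT level for Krt8, 1.41 for Krt18, 1.73 for Krt19 and 1.86 for Krt7. At day 7 the ratios were 1.28, 1.29, 1.26 and 1.63 in the same order. At day 5 they were 0.891, 0.724 and 0.883 for Krt8, Krt18 and Krt19, at day 8 0.964, 0.889 and 0.770, and at day 10 0.954, 0.904 and 1.20. On each day both lines gave 1 library each, so these daily ratios have no replicate check.

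Divided by exon length in kilobases, which turns CPM into RPKM, Krt18 was the most abundant of the 8 genes over days 5 to 10, at 529 ± 318 (SD, n = 10 libraries). Krt8 followed at 273 ± 160 RPKM and Krt19 at 155 ± 75.02 RPKM, and each of these 3 lay above the next gene in 10 of 10 libraries. Krt7 (15.7 RPKM), Tfap2c (14.3), Gata3 (13.2) and Cdx2 (12.2) did not differ beyond their spread, and Krt7 lay above Tfap2c in 4 of 10 libraries. Elf5 came last at 0.0408 RPKM, below Cdx2 in 10 of 10 libraries.

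The ratio of Krt8 to Krt18 per kilobase stayed between 0.336 and 0.648 while both genes climbed. RepB libraries gave ratios of 0.570, 0.414, 0.648, 0.581, 0.512 and 0.470 in order of day, and WT libraries 0.448, 0.336, 0.636, 0.585, 0.472 and 0.446. Averaged over the differentiating days it was 0.52 ± 0.09 in RepB and 0.50 ± 0.12 in WT (SD, n = 5 days), and in both lines day 5 was the lowest day and day 6 the highest. The make-up of the set changed more. Krt19 held 44.5% of the summed RPKM of the 4 keratins in RepB and 53.6% in WT at day 0. Over days 5 to 10 its share was 11.8% to 26.1% in RepB and 12.3% to 22.6% in WT, and Krt8 with Krt18 then held 72.6% to 87.0% in RepB and 76.4% to 85.2% in WT. Krt7 never passed 3.79% of the sum in RepB or 3.19% in WT.

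**Figure D2:**
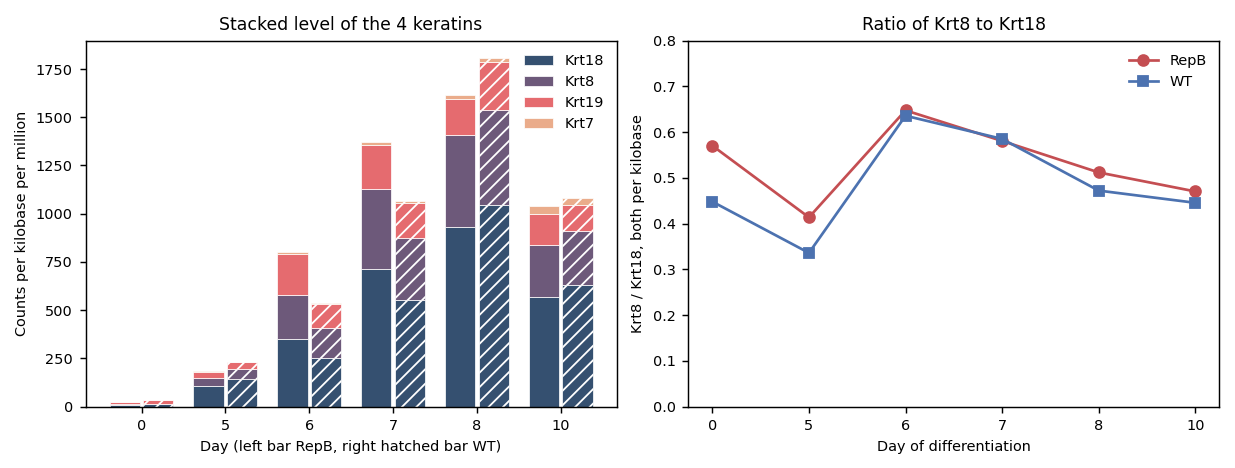
Left, summed level of Krt18, Krt8, Krt19 and Krt7 (stacked RPKM, axis from 0) by day, with RepB as the left and WT as the right, hatched bar of each pair. Right, the ratio of Krt8 to Krt18 per kilobase by day in RepB (circles) and WT (squares), with days evenly spaced and 1 library per point; the ratio stays between 0.336 and 0.648 while the summed level changes from 25.9 RPKM in RepB and 34.9 RPKM in WT at day 0 to 1615 RPKM in RepB and 1806 RPKM in WT at day 8.

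The remaining keratin genes were low over days 5 to 10. Their sum was then 6.67 to 19.1 CPM in RepB and 8.10 to 11.1 CPM in WT. At day 0 it was 50.6 CPM in RepB and 42.2 CPM in WT, beside 38.1 and 50.4 CPM for the 4 keratins. Of 48 other keratins in the table, 13 had no count in any library, and 15 exceeded 3 counts in at least 1 library. The 4 keratins described here held 44.4% of all keratin RPKM in RepB and 56.6% in WT at day 0, and 94.3% to 99.7% in RepB and 97.3% to 99.7% in WT over days 5 to 10. Krt17, a keratin of basal and stressed epithelium, stood at 26.1 CPM in RepB and 21.0 CPM in WT at day 0. It fell with differentiation by 4.30 ± 0.21 on the log2 scale (SE, edgeR adjusted p = 6.92e-09), and Krt42 fell by 4.16 ± 0.25 (adjusted p = 4.44e-08). Of the 8 other keratins that could be tested, 0 rose and 2 fell, against 31.7% of 15179 genes called higher and 32.3% called lower on days 5 to 10 than at day 0. Between RepB and WT over days 5 to 10, edgeR called 0 of these 8, against 1.51% of all genes called higher and 0.771% called lower in RepB; 2 had an unadjusted p under 0.05, and DESeq2 and limma-voom called 0 each. Krt5, the partner of Krt14 in stratified epithelium, had at most 3 counts in any library, and Krt14 itself had at most 1.67 CPM in RepB and 0.773 CPM in WT.

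Cdx2, which specifies trophectoderm and posterior body, was at or near the detection limit until day 5 and then peaked sharply. It stood at 0.394, 0.566, 9.46, 30.5, 64.0 and 16.8 CPM in RepB, and at 0.0592, 0.506, 8.74, 35.2, 72.6 and 22.7 CPM in WT. The day 5 value in RepB rests on 3 counts and the day 0 value in WT on 1 count. Day 8 was the highest day in both lines, and day 10 was 0.263 times the peak in RepB and 0.313 times in WT. The log2 RepB/WT difference over days 5 to 10 was -0.12 ± 0.22, with RepB higher on 2 of 5 days.

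Gata3, a zinc-finger factor of trophoblast and several other tissues, climbed to a plateau. It stood at 2.04, 5.10, 15.8, 51.0, 64.8 and 63.8 CPM in RepB, and at 1.01, 2.87, 11.1, 46.4, 87.3 and 76.4 CPM in WT. RepB was the higher line up to day 7 and the lower one at days 8 and 10. The mean log2 difference was 0.13 ± 0.49, smaller than its spread. Day 10 held 0.984 of the day 8 level in RepB and 0.875 in WT, whereas Cdx2 had dropped by then.

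Tfap2c, the AP-2γ factor of trophoblast, ES cells and germ cells, went the other way from the other detected members. It stood at 116, 70.8, 68.8, 48.5, 30.6 and 41.1 CPM in RepB, and at 115, 57.0, 48.0, 34.7, 17.3 and 20.5 CPM in WT. All 5 differentiating days lay below day 0 in each line, on average by a log2 of -1.22 ± 0.51 in RepB and -1.83 ± 0.74 in WT (SD, n = 5). RepB was higher on 5 of 5 days, by a log2 of 0.62 ± 0.27. The ratio was 1.24-fold at day 5 and 2.01-fold at day 10, while at day 0 the log2 difference was 0.012. Among the 8 genes it is the only one whose mean difference between the lines exceeded 2 times its SD over days, a description of values that also served to choose it.

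Elf5, an ETS factor that keeps trophoblast stem cells in their lineage, was hardly detected. RepB libraries held 1, 2, 1, 0, 0 and 1 counts at days 0, 5, 6, 7, 8 and 10, and WT libraries held 0, 0, 0, 0, 1 and 0 counts. All were at or under the limit of 3 counts, so no fold is given. Elf5 did not pass the low-count filter, and the other 7 members did.

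**Figure D3:**
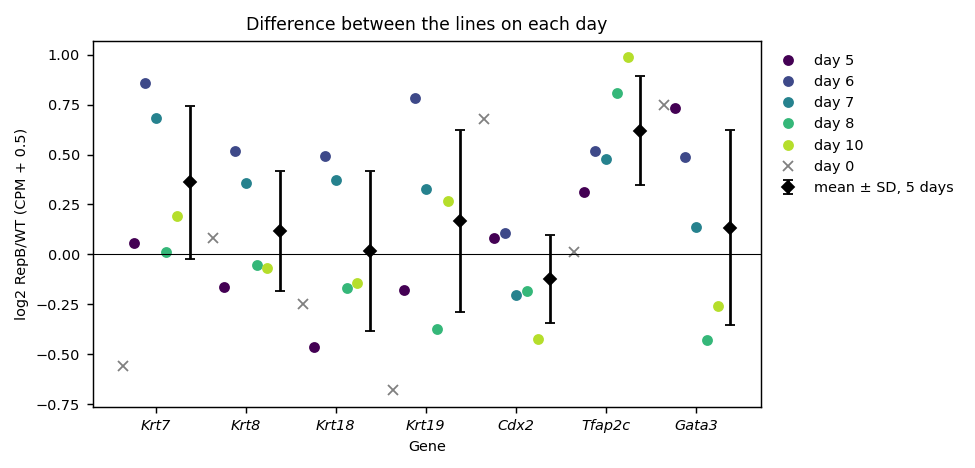
Log2 RepB/WT of CPM + 0.5 for the 7 detected genes, with 1 coloured point per differentiating day, a grey cross for day 0 and a black diamond with bars for the mean ± SD over the 5 days. The Tfap2c points all lie above 0 with a mean of 0.62 ± 0.27. The coloured Krt7 points lie at or above 0.013, while its day 0 cross lies at -0.56. The other genes have points on both sides of 0.

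Across the 12 libraries, log2 CPM of the keratins followed each other closely, as a description of libraries that share day and line. Pearson's r was 0.99 for Krt8 with Krt18, 0.97 for Krt8 with Krt19 and 0.96 for Cdx2 with Gata3. Krt7 followed less closely, at 0.93 with Krt18, 0.92 with Krt8 and 0.87 with Krt19. Krt18, the keratin member closest to it, held rank 228 among the genes most like Krt7. Tfap2c ran from -0.88 with Gata3 to -0.77 with Krt19. Among all genes that passed the filter, the 3 with the highest r to Krt8 were Krt18, Mogat2 and Plcl2, and those for Krt18 included Krt8 and Tpm1. For Krt19 they were Id1, Mogat2 and B3gnt5, and for Krt7 they were Slc25a24, Nab1 and Gpx8. For Cdx2 they were Msx1, Msx2 and Tnnt3, for Gata3 Bin1, Capn2 and Ext1, and for Tfap2c Zyg11a, Psma8 and Siglecf. These likenesses ranged in r from 0.97 for B3gnt5 with Krt19 to 0.99 for Krt18 with Krt8, n = 12 libraries each.

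Several other trophoblast genes rose against day 0, and several placental ones had few counts or none. Of 24 listed genes 18 could be tested, and 10 rose and 3 fell on days 5 to 10 against day 0, beside 31.7% higher and 32.3% lower of all genes tested. Their median log2 change was 1.13, against 0.014 over all genes tested. Hand1, needed for trophoblast giant cells and for heart and mesoderm, stood at 2.49, 1.89, 31.1, 672, 1474 and 685 CPM in RepB and at 4.03, 1.35, 18.9, 469, 1002 and 932 CPM in WT (log2 5.26 ± 0.28 SE, edgeR adjusted p = 1.5e-08). Eomes, a T-box factor of trophoblast and of the primitive streak, peaked at day 6 with 529 CPM in RepB and 507 CPM in WT and was at 7.74 CPM in RepB and 7.65 CPM in WT by day 10. Peg10, an imprinted gene needed for the placenta, rose by 2.46 ± 0.15 (adjusted p = 5.16e-08). Plac1, an X-linked trophoblast gene, rose too (adjusted p = 4.88e-07), with 0 CPM in RepB and 0.0592 CPM in WT at day 0 and 22.0 CPM in RepB and 11.3 CPM in WT at day 8. Esx1 (-2.48), Ascl2 (-1.93) and Tead4 (-0.55) fell, and the fall of Tead4 lost its call without day 5. Prl3d1, Prl2c2 and Ctsq, products of giant cells and labyrinth, had no count in any library, and Prl3b1 had at most 3. The next 4 genes were named after their values were seen. Gcm1, a factor of labyrinth syncytiotrophoblast, reached 6.61 CPM in RepB at day 5 and 2.85 CPM in WT at day 6. The syncytin gene Syna reached 2.14 CPM in RepB and 1.47 CPM in WT, both at day 10. Its relative Synb had 6 counts in RepB and 5 in WT at day 10, and Tpbpa, of spongiotrophoblast, was at most at 0.267 CPM in RepB and 0.588 CPM in WT. The number of falling genes was 5 by limma-voom and 5 without day 8.

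Within days 5 to 10, 11 of the 18 trophoblast genes rose and 1 fell per day on a straight line, against 27.1% and 25.4% of all genes. Without day 5 the counts were 6 and 1, and without day 6 they were 7 and 0. Eomes was the gene that fell, by 1.13 ± 0.32 log2 per day (edgeR adjusted p = 0.0118), a call lost without day 6 or day 10. Between the lines, 1.51% of all genes were called higher in RepB over days 5 to 10 and 0.771% lower. Of the 18 trophoblast genes, 3 were higher in RepB and 0 were lower. These were Rhox6 (log2 0.98 ± 0.19, adjusted p = 0.0242), Plac1 (0.92 ± 0.20, 0.0353) and Rhox9 (0.91 ± 0.18, 0.0251), all on the X chromosome. Leaving out day 5, 6 or 7 gave a count of 0, leaving out day 8 gave 2 and leaving out day 10 gave 1. With no day term 0 were called, and DESeq2 called 2. The call of Plac1 was lost by DESeq2, after thinning and with any 1 day left out.

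Many epithelial junction genes rose against day 0, and many fell per day within days 5 to 10. Of 39 tested genes of the 40 listed, 21 rose and 8 fell against day 0, with a median log2 of 0.72, beside 31.7% higher and 32.3% lower of all genes tested. Within days 5 to 10, 4 rose and 24 fell per day, beside 27.1% rising and 25.4% falling of all genes. Cdh1, the epithelial cadherin, stood at 710, 1208, 994, 560, 325 and 310 CPM in RepB and at 714, 1402, 1012, 574, 257 and 231 CPM in WT, a slope of -0.47 ± 0.06 log2 per day (edgeR adjusted p = 0.000107). Epcam, another surface adhesion protein, fell by 0.33 ± 0.04 per day (adjusted p = 7.03e-05), and was highest at day 5 with 262 CPM in RepB and 280 CPM in WT. Those with a rising slope included the desmosome genes Dsc2 (0.34 ± 0.05), Jup (0.16 ± 0.03) and Pkp2 (0.16 ± 0.05). Of these, Dsc2 lost the call without day 10 and Pkp2 without day 5 or day 6. Among other desmosome genes of the list, Dsg2 stood at 180 CPM in RepB and 179 CPM in WT at day 0. Over days 5 to 10 it averaged 95.1 CPM in RepB and 89.3 CPM in WT. Pkp3 averaged 16.3 CPM in RepB and 12.9 CPM in WT, against 12.7 and 13.1 CPM at day 0. Pkp1 never passed 0.287 CPM in RepB or 0.890 CPM in WT.

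Desmosomes are the junctions that anchor keratin filaments, and Dsp, the plaque protein that binds them, rose by 2.91 ± 0.13 against day 0 (edgeR adjusted p = 4.44e-09). It stood at 66.2, 193, 585, 913, 570 and 444 CPM in RepB and at 65.3, 203, 544, 924, 458 and 459 CPM in WT, highest at day 7 in both lines. Grhl3 (-2.54 ± 0.12), Evpl (-1.38), Elf3 (-1.28) and Grhl1 (-1.27) were among the genes that fell against day 0. Between the lines 1 of the 39 was called, beside 2.28% of all genes tested. It was Grhl3, a grainyhead factor of surface epithelium, higher in RepB by 0.77 ± 0.13 (edgeR adjusted p = 0.0105). Its call was lost without day 6, without day 7 and with no day term, and 3 genes of the list were called without day 8.

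**Figure D4:**
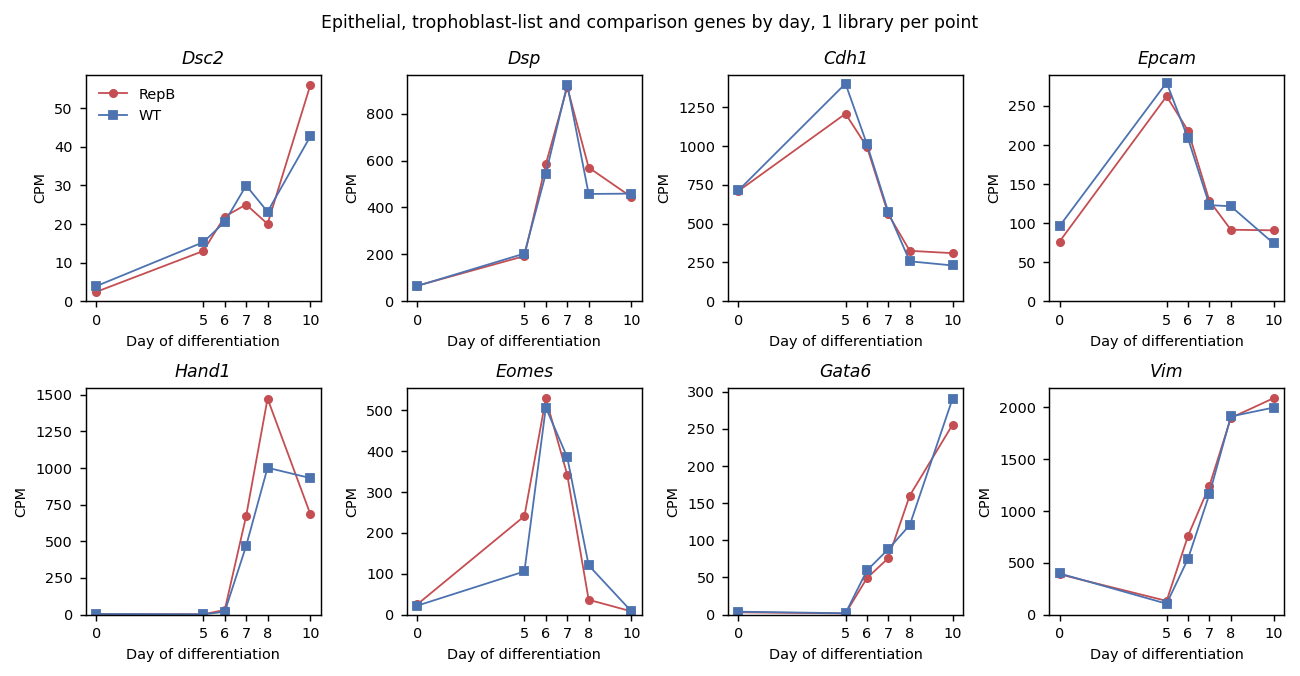
CPM by day of 8 genes set beside the keratins and regulators (linear axes from 0, scaled per gene), RepB as red circles and WT as blue squares, 1 library per point. In both lines Dsp is highest at day 7, Hand1 at day 8 and Dsc2 at day 10, Cdh1 and Epcam are highest at day 5, Eomes peaks at day 6 with 529 CPM in RepB and 507 CPM in WT, and Gata6 and Vim are highest at day 10.

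Among family relatives of the 4 regulators, as many rose as fell against day 0. Of 16 tested, 6 rose and 6 fell, shares near the 31.7% higher and 32.3% lower of all genes. Per day 9 rose and 2 fell (6 and 1 without day 6), beside 27.1% rising and 25.4% falling of all genes. Gata6 (log2 3.91 ± 0.20, edgeR adjusted p = 1.24e-08), Gata4 (1.95 ± 0.14) and Gata5, the GATA factors of endoderm and heart, rose against day 0. At day 10 Gata6 stood at 256 CPM in RepB and 291 CPM in WT, and Gata5 at 21.4 CPM in RepB and 28.0 CPM in WT. The call of Gata5 was lost without day 10 and after thinning. Between the lines 1 of the 16 was called over days 5 to 10, beside 2.28% of all genes tested. It was Gata2, which acts beside Gata3 in trophoblast and in blood, higher in RepB by 0.62 ± 0.10 (edgeR adjusted p = 0.0118). That call was lost without day 7, without day 10 and with no day term. Cdx1 fell by 2.34 ± 0.25 (adjusted p = 5.62e-06), and Cdx4 had at most 2.71 CPM in RepB and 3.82 CPM in WT. Tfap2a rose by 1.01 ± 0.27 (adjusted p = 0.0052), and Elf3, an epithelial relative of Elf5, fell.

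Genes of other tissues that make these keratins or regulators changed on the same days, and their part in the levels was not tested. The counts below stand beside 31.7% of all genes called higher and 32.3% lower against day 0. Per day 27.1% of all genes rose and 25.4% fell, and between the lines 1.51% were higher and 0.771% lower in RepB. Of 17 visceral and parietal endoderm genes 11 rose and 3 fell against day 0, and 12 rose and 0 fell per day. The summed level of that list was 297 to 3907 CPM in RepB and 316 to 3197 CPM in WT over days 5 to 10, and 0 of its genes lacked a count. Between the lines 3 of the 17 were higher in RepB, Apob, Apoa1 and Ttr, and 0 were so without day 7 or without day 10. Of 8 mesothelial genes 3 rose and 4 fell against day 0, and 5 rose and 0 fell per day. Their sum was 38.6 to 332 CPM in RepB and 45.5 to 290 CPM in WT. Of 10 primitive streak and caudal genes 5 rose and 1 fell against day 0. T, the Brachyury factor, was highest at day 6 with 682 CPM in RepB and 637 CPM in WT, 2 days before the peak of Cdx2. The caudal sum was 26.96 to 1291 CPM in RepB and 36.96 to 1228 CPM in WT. Within days 5 to 10, 0 of the 10 caudal genes rose and 3 fell per day, a count of 7 without day 5 and of 0 without day 6, without day 10 and by limma-voom. Between the lines edgeR called 0 of the 10 caudal and 0 of the 8 mesothelial genes (0 and 1 at an unadjusted p under 0.05, and 0 by DESeq2 and limma-voom).

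For the next 2 lists, the shares of all genes were again 31.7% higher and 32.3% lower against day 0, and 27.1% rising and 25.4% falling per day. Of 10 tested surface ectoderm and stratified epithelium genes 5 rose and 1 fell against day 0, and 3 rose and 2 fell per day (4 and 0 without day 10). Sfn had the highest mean CPM of them and was highest at day 6 with 327 CPM in RepB and 279 CPM in WT, while the stratified regulator Trp63 never passed 1.13 CPM in RepB or 1.18 CPM in WT. The sum of this list was 159 to 373 CPM in RepB and 178 to 310 CPM in WT over days 5 to 10. Of 14 tested intermediate filament genes other than keratins 6 rose and 3 fell against day 0 (6 and 5 without day 5), and 3 rose and 8 fell per day. The 9 called against day 0 in either direction stand beside 64.1% of all genes. Between the lines edgeR called 0 of these 14 and 0 of the 10 surface ectoderm genes (3 and 2 at an unadjusted p under 0.05, 0 and 1 by DESeq2, 0 and 0 by limma-voom). The share of all genes called by edgeR was 1.51% higher and 0.771% lower in RepB. Vim, the filament of mesenchyme, stood at 389, 132, 760, 1244, 1900 and 2091 CPM in RepB and at 397, 105, 539, 1164, 1913 and 2000 CPM in WT. Its level per kilobase was 8.19 times that of the 4 keratins together in RepB and 6.21 times in WT at day 0, and 1.10 times in RepB and 1.01 times in WT at day 10. At days 5 to 8 the ratio was 0.391 to 0.641 in RepB and 0.244 to 0.595 in WT.

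Naive pluripotency and germ cell genes moved on the same days as Tfap2c. Of 12 tested 0 rose and 11 fell against day 0, 1 rose and 10 fell per day, and 7 were higher in RepB and 0 lower over days 5 to 10. Without day 7 the last count was 3, without day 6 it was 4, and with no day term it was 0. Over all genes tested, 31.7% were higher and 32.3% lower against day 0, and 27.1% rose and 25.4% fell per day. Of the same genes, 1.51% were called higher and 0.771% lower in RepB. Zfp42, for example, was higher in RepB by 0.90 ± 0.09 (edgeR adjusted p = 0.0016). The list summed to 499 to 2692 CPM in RepB and 358 to 2048 CPM in WT over days 5 to 10, and its part in the Tfap2c difference was not tested. Of 9 tested fibroblast and feeder genes 0 rose and 4 fell against day 0 (3 rose without day 5 or without day 6). Per day 7 rose and 1 fell. In RepB 2 of the 9, Postn and Col3a1, were higher, with 0 called without day 6 or without day 7. Neither Postn nor Col3a1 was called by DESeq2 or with no day term. The call of Postn was also lost by limma-voom, after thinning and without day 5 or day 8, and that of Col3a1 without day 10. The fibroblast and feeder list summed to 55.3 to 13486 CPM in RepB and 69.5 to 8981 CPM in WT.

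The rate of change over days 5 to 10 was compared between the lines over all genes. By edgeR 0 of 15179 genes (0%) differed in slope, 268 had an unadjusted p under 0.05, DESeq2 called 1 and limma-voom 0. By these tools none of the listed genes was called, and at an unadjusted p under 0.05 the lists held at most 2 genes each. Over all genes, 2.28% were called between RepB and WT over days 5 to 10, 64.1% against day 0 and 52.5% for a slope.

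Reads over strain variants had been assigned by the authors to 2 alleles, cas and mus, taken here to be those of CAST/Ei and 129/Sv/Jae. These shares had no part in the choice of the 8 genes and could be tested. For 6 of them the counts sufficed. Krt7, with 7 allelic counts in RepB and 11 in WT, and Elf5, with 2 in RepB and 0 in WT, were not informative. Krt8 and Krt18, among the 6, lie on chromosome 15, where informative genes had a median cas share of 0.755%. Whether their cas counts stem from these genes was not tested, so the test below may not concern their own alleles. In the edgeR test of the cas share in RepB against WT over days 5 to 10, 0 of the 6 were called (adjusted p = 1 for each, and 0 at an unadjusted p under 0.05), against 2.24% of 10332 informative genes and 0.53% of the 10001 autosomal ones.

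Krt8 had the most allelic counts of the 6 genes, but its share lay far from those of its neighbours, as given below. Its cas share was 49.1%, 46.1%, 45.5%, 49.8% and 46.7% in RepB at days 5, 6, 7, 8 and 10, and 48.5%, 43.9%, 43.6%, 46.0% and 46.2% in WT. RepB lay higher on 5 of 5 days, by 1.79 ± 1.36 points (SD, n = 5), and the log2 odds ratio was 0.11 ± 0.10 (SE). At day 0 the shares were 57.5% in RepB, with an exact Clopper-Pearson 95% interval of 45.9% to 68.5%, and 50% in WT, with an interval of 37.98% to 62.02%. Krt19 averaged 44.0% ± 4.1 in RepB and 41.5% ± 1.95 in WT, and Tfap2c 49.3% ± 4.99 in RepB and 47.7% ± 4.18 in WT. Gata3 averaged 48.8% ± 3.15 in RepB and 47.3% ± 8.21 in WT, over 4 days each. Cdx2 averaged 56.9% ± 14.3 over 3 days in RepB and 57.6% ± 15.8 over 4 days in WT. All 5 of these genes had counts of both alleles in both lines.

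Krt18 stood apart from these genes, with a mean cas share of 10.6% ± 2.22 in RepB and 9.20% ± 3.00 in WT. By day it was 10.98%, 9.32%, 14.3%, 8.89% and 9.59% in RepB, and 4.69%, 13.1%, 8.96%, 9.54% and 9.71% in WT. RepB was higher on 2 of 5 days, with a log2 odds ratio of 0.16 ± 0.15.

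Krt8 also stood apart from its own chromosome. Over the 12 libraries, 389 informative genes of chromosome 15 had a median cas share of 0.755% (quartiles 0.347% to 1.63%), and 3.34% of them lay between 25% and 75%. The cas share of Krt8 exceeded that of 96.7% of these genes, and that of Krt18 exceeded 91.5%. The 9 nearest informative genes around Krt8, leaving out Krt18, had a median of 0.572% and a range of 0.148% to 6.75%, the highest being Eif4b, 77.1 kb away. Of all Krt8 counts, 57.3% had been assigned to an allele, against 18.1% for Krt18 and 25.5% to 26.7% of all counts in the libraries. For Krt19, Cdx2, Tfap2c and Gata3 the surroundings looked like the gene itself, with medians of 44.8%, 49.3%, 49.6% and 47.5% among the 10 nearest informative genes. Counts of Krt8 and Krt18 are uncertain to the extent that reads are shared with near-identical copies elsewhere in the genome, such as the pseudogene Krt8-ps that RefSeq lists, and the part of such reads in the cas shares was not tested.

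**Figure D5:**
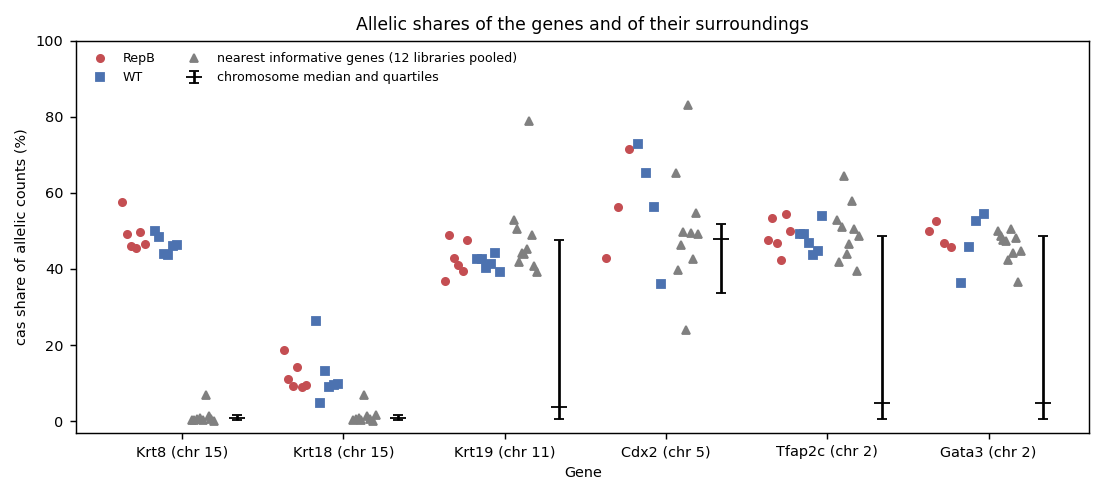
Cas share of allelic counts (percent, axis from just below 0 to 100) for the 6 informative genes, with RepB libraries as red circles, WT libraries as blue squares (days in order from left to right, libraries with at least 10 allelic counts), the nearest informative genes as grey triangles and the chromosome median with quartiles as a black bar. Krt8 lies near 46% in both lines while its neighbours and chromosome 15 lie near 1%, and the means of Krt19, Cdx2, Tfap2c and Gata3 lie within the range of their neighbours.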

How the data were processed

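PolyA RNA was sequenced from 12 libraries, 6 per line. The authors deposited raw counts per gene, in total and for the cas and mus alleles, with the summed exon length of each gene as the other deposited column. Per the submitters' processing notes, Novoalign, TopHat, SAMtools, bedtools and featureCounts were used on mm9, without versions or roles. Per the labels' protocols the library kit was directional. Whether counting used strand is not given in the sources used here, so genes that overlap on opposite strands are uncertain. A further 6 count columns of a day with no matching RNA sample were not used, and 21 ChIP and input samples were not analysed here.

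CPM used library totals. Tests across genes used edgeR 4.0.16 in R 4.3.3 (TMM, filterByExpr, quasi-likelihood F test, Benjamini-Hochberg adjustment over all genes tested, threshold 0.05). All 12 libraries entered 1 fit with day terms and RepB effects at day 0 and over days 5 to 10, leaving 4 residual degrees of freedom. Its error reflects how the RepB/WT difference varied among days, also in the comparison with day 0. Slopes were fitted on 10 libraries with 7 residual degrees of freedom, and their difference with 6. P-values between the lines measure how steady that difference was over days of 1 time course per line. Those against day 0 rest on the same error, so they do not measure how steady a rise or fall was over days. Slope p-values rest on the scatter around straight lines over the same days. No p-value says anything of other cultures. Allelic shares were tested on cas and mus counts of genes averaging 20 or more allelic counts, with 4 residual degrees of freedom, and a library's share is given from 10 allelic counts. Alternatives were RLE factors, DESeq2 1.42.0, limma-voom (limma 3.58.1), no low-count filter, thinning to the smallest library, no day term, each day left out, another pseudocount (1 CPM), TMM-scaled CPM and other allelic minimums (10 and 50). Scripts were tested on simulated data.

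The 8 genes and the gene lists (trophoblast, epithelial junctions, surface ectoderm, other filaments, other keratins, family relatives, endoderm, mesothelium, streak and caudal, feeder, naive pluripotency) were chosen with earlier results of these data known. Named list genes are up to 4 called genes per direction with the largest change at an average log2 CPM of at least 2, plus the 3 with the highest mean CPM; any others were chosen after their values were seen. Results of 1 gene that the rule names are not reported here. No molecular identifiers are named in the labels, so intervals and detection limits hold for counting error alone. Promoter sequences are from RefSeq, GRCm38.p6.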

Additional observations from a re-analysis of the deposited data

How the results depend on the processing

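For RepB against WT over days 5 to 10, 346 genes were called, and the count depended on the days used. It was 38 to 744 with 1 day left out (216, 81, 38, 744 and 134 without day 5, 6, 7, 8 or 10), 592 without the low-count filter, 220 after thinning and 0 with no day term, where differences between days counted as spread. The slope difference gave 0 genes, and 1 by DESeq2. Counts of the other comparisons stayed within 1.5 times under every alternative run. For the 8 genes, 0 of 128 alternative values moved by more than 1 SD. Leaving out 1 of 5 days cannot move their mean that far, so for those runs this outcome was fixed in advance. Signs changed near 0 for 4 values. The log2 RepB/WT of Krt18 was -0.10 without day 6 and -0.072 without day 7. That of Cdx2 was 0.062 after thinning, and that of Gata3 was -0.015 without day 5. The allele test gave adjusted p = 1 for all 6 genes under every alternative that gave a value, except Krt18 (0.76 to 1). Cdx2 and Gata3 gave none at a minimum of 50 allelic counts. Of 149 calls of named genes, 44 were lost under at least 1 alternative. Among named genes called with all days or under the alternative, signs turned for the slope of Ascl2 without day 10 (-0.021; 0.55 at most) and of Wnt6 without day 5 (-0.35; 0.53 at most), and against day 0 for Col1a1 without day 8 (-0.40) or day 10 (-0.86; 1.09 at most), Des without day 10 (-0.0078; 0.79 at most) and Postn without day 5 (1.67; -2.06 at least); the cause was not tested. Values called under neither also changed sign and are not listed. The day term already set RepB against WT of the same day. Beyond it, no paired analysis was possible because the labels carry no replicate numbers. RepB depth limits Elf5, Cdx2 at day 5 and allelic shares of Cdx2 and Gata3.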
